A study of Mus musculus with 4 samples.

Results

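Gata3, Bcl11b, Insm1, Lox and Slc26a5 are 5 genes whose RNA was abundant in hair cells (HCs) of the newborn mouse cochlea and close to the lowest recorded signal in HCs of the vestibular system. They were selected on that difference, from the 12814 genes of an RNA-seq table with 1 library per population, so the values in the HC libraries are given as a description. All cells came from newborn Atoh1/nGFP mice with the strain background C57BL/6, whose transgene marks HCs with a nuclear green fluorescent protein, and with the inner ears of several mice pooled for each sort. The 4 populations were cochlear HCs, cochlear ENSCs, vestibular HCs and vestibular ENSCs. HCs were sorted as cells positive for both the fluorescent protein and the epithelial surface protein CD326. ENSCs (epithelial non-sensory cells) were positive for CD326 alone, a gate that takes in supporting cells and other epithelium around the HCs. The sort does not separate inner from outer HCs in the cochlea, or HC types and end organs in the vestibular system. The design text speaks of independent triplicates, but the table has 1 column for each population, and whether a column combines replicates is not stated. No difference therefore has a replicate error, and no p-values are given.

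HCs turn mechanical movement into electrical signals, in the cochlea for hearing and in the utricle, saccule and semicircular canal cristae for balance. The cochlea holds inner HCs, which pass the signal to the auditory nerve, and outer HCs, which change length and amplify sound. Gata3 encodes a zinc-finger transcription factor needed for cochlear development, and loss of one copy causes deafness in people. Bcl11b encodes a zinc-finger factor best known from T cells and cortical neurons, and Insm1 one known from neuroendocrine cells, neuronal progenitors and young outer HCs. Slc26a5 encodes prestin, the motor protein of outer HCs. Lox encodes lysyl oxidase, a secreted enzyme that cross-links collagen and elastin.

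The deposited values are quantile-normalized read counts with a floor of 20, called signals here, so each library has the same set of sorted signals and its own depth cannot be read from them. The lowest signals of a library formed a tied range, in which a signal carries no rank of its own. That range ended at 24.25 in cochlear HCs, at 30.5 in vestibular HCs, at 22.75 in cochlear ENSCs and at 20, the floor itself, in vestibular ENSCs. The vestibular HC library had the largest share of its genes there, 21.0%. A fold against a signal inside such a range is given as a lower bound against its top. The 10 pan-HC markers checked for the sort, among them Pou4f3 and Myo7a, were at least 3-fold above the ENSCs of the same organ in both HC libraries (8.39% of all genes for cochlear and 13.8% for vestibular HCs), and none of the 10 differed 3-fold between the HC libraries (4.21% of all genes higher and 5.09% lower in cochlear HCs).

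Promoters from the RefSeq promoter table (build GRCm38.p6) were used for 3 of the 5 genes. Insm1 had no entry there, and the promoter of Lox was left out. The 3 promoters are shown because their genes shared the difference between the HC libraries while the promoters were unlike in base composition. Each window is printed 5′ to 3′ on the strand of the gene and spans the transcription start, with most of its bases before the start. Capitals mark matches on either strand to a GATA site (the letters GATA with A or T before them and A or G after them) or to an E-box, either CAGCTG or its close relative CAGATG, the kind of site bound by bHLH factors such as ATOH1. The windows are chr2:9878551-9878850 (minus strand) for Gata3, chr12:108003365-108003664 (minus strand) for Bcl11b and chr5:21865555-21865854 (minus strand) for Slc26a5.
Gata3: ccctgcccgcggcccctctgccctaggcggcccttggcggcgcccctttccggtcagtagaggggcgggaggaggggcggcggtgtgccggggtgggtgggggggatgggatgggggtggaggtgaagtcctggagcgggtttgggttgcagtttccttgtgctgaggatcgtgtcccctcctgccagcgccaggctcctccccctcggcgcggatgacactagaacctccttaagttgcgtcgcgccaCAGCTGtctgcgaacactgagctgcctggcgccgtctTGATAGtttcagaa
Bcl11b: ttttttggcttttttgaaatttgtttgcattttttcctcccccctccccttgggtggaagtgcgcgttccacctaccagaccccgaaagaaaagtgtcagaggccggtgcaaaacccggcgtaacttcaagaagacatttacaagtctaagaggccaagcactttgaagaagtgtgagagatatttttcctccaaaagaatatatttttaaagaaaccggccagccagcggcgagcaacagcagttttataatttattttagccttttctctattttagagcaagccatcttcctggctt
Slc26a5: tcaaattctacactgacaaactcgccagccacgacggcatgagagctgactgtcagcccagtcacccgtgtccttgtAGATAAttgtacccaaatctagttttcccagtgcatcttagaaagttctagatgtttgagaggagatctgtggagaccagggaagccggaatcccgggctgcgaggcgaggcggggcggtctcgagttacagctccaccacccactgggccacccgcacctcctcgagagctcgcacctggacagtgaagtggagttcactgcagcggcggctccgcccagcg

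The Gata3 window had a GC content of 67.3%, above 86.2% of all promoters of that length, and the Slc26a5 window 58.0%. The Bcl11b window, with 43.0%, was AT-rich and above only 16.5% of them. Gata3 carried TGATAG at bases 287 to 292 and CAGCTG at bases 250 to 255. Slc26a5 carried AGATAA at bases 78 to 83 and no match to either E-box. Bcl11b had no match to a GATA site or to these E-boxes, and 1 to the TATA box TATAAA on the reverse strand at bases 246 to 251. The GC box GGGCGG matched 2 times each in Gata3 and Slc26a5 (both strands searched), and GTTGCC, a part of the site of RFX factors, in none of the 3. Of 32851 promoters in the table, 29.8% held a GATA site, 16.3% the E-box found in Gata3, 17.2% the other E-box, 35.7% the GC box, 13.6% the TATA box and 12.5% the part of the RFX site. A GATA site in 2 of 3 windows and an E-box in 1 of 3 are descriptions of these letters and not of binding. They do not cover Lox and Insm1, whose promoters were not searched.

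In cochlear HCs all 5 genes were well above the tied range. Gata3 had a signal of 3920.5 in cochlear HCs, 5323.5 in cochlear ENSCs, 30.5 in vestibular HCs and 75.5 in vestibular ENSCs. Its RNA was thus high in both cochlear libraries and low in both vestibular ones. Bcl11b had 2260.25 in cochlear HCs, 111.5 in cochlear ENSCs, 30.5 in vestibular HCs and 105.25 in vestibular ENSCs. It was high in cochlear HCs alone, and the 2 ENSC libraries had nearly the same moderate signal. Insm1 had 1378.75 in cochlear HCs, 22.75 in cochlear ENSCs, 29.75 in vestibular HCs and 20 in vestibular ENSCs. All 3 of its lower signals were inside tied ranges.

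Lox had 3178 in cochlear HCs, 532.75 in cochlear ENSCs, 31.75 in vestibular HCs and 65.25 in vestibular ENSCs. It was highest in cochlear HCs, with a clear signal in cochlear ENSCs as well. Slc26a5 had 455 in cochlear HCs, 22.5 in cochlear ENSCs, 29 in vestibular HCs and 20 in vestibular ENSCs. Like Insm1, it stood above the tied range in cochlear HCs only. Set against exonic length, the cochlear HC signals were 986 per kb for Gata3, 677 for Lox, 445 for Insm1, 279 for Bcl11b and 148 for Slc26a5. The order of neighbouring genes in this series has no replicate spread to be judged by.

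**Figure D1:**
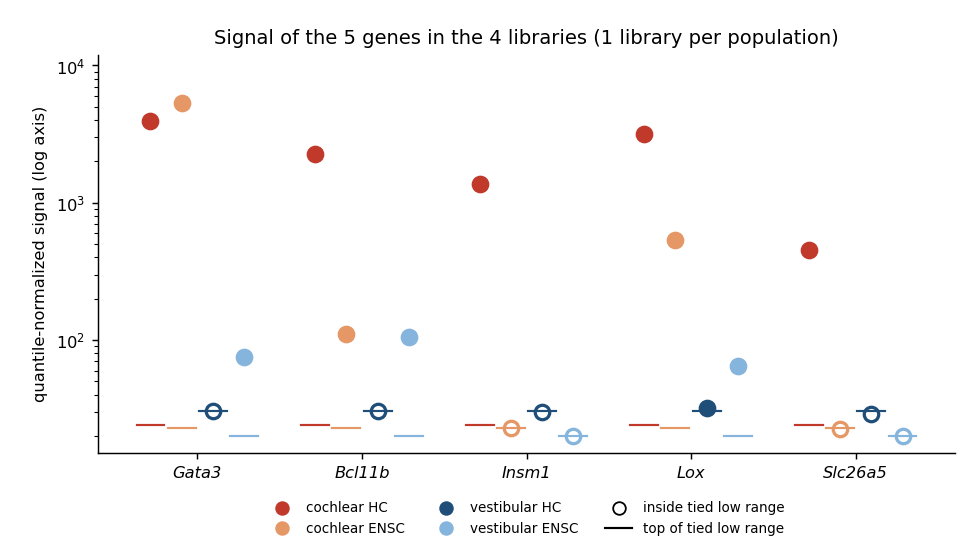
Quantile-normalized signal (log axis) of the 5 genes in the 4 libraries, 1 point per library, with a short line at the top of each library's tied low range and open points for signals inside it. The cochlear HC points lie between 455 and 3920.5, the vestibular HC points between 29 and 31.75, and the cochlear ENSC points are spread from the tied range (Insm1, Slc26a5) to 5323.5 (Gata3).

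The question behind the comparison of the HC libraries was which transcripts distinguish the HCs of hearing from those of balance. All 5 genes were at least 3-fold higher in cochlear HCs, by construction, where 4.21% of all 12814 genes were higher and 5.09% lower. The lower bound was 129-fold for Gata3, 74.1-fold for Bcl11b, 45.2-fold for Insm1 and 14.9-fold for Slc26a5. Lox had a ratio of 100.1, which is no more exact than these bounds, since its vestibular signal of 31.75 ended a second tied run. Of 13 supporting cell markers 4 passed 3-fold in the same direction, among them Gjb2 (12.4-fold) and Tecta (7.94-fold), while the median log2 ratio of the 13 was -0.12 and Tectb, Otog and Sparcl1 were lower by 2.04-fold to 2.19-fold. Their part in these values was not tested.

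The vestibular HC signals of these genes, from 29 to 31.75, were not distinct measurements. Within the tied range of that library the order of genes followed their signals elsewhere: the median, over genes, of the largest signal outside that library was 449 for the 36 genes at 29, 861 for the 56 genes at 29.75 and 3182 for the 14 genes at 30.5, and it dropped to 39.75 for the 35 genes at 30.75. Gata3 and Bcl11b were 2 of the 14 genes at the top step, Insm1 was 1 of the 56 at 29.75 and Slc26a5 1 of the 36 at 29. Lox was the only gene at 31.75, the end of that second, shorter run, which began at 30.75. Of the 3010 genes with a cochlear HC signal of at least 455, the signal of Slc26a5, 12 were inside the tied range of vestibular HCs. Of these 12, 3 were in the tied ranges of both ENSC libraries too, namely Insm1, Slc26a5 and Kif21b, which encodes a kinesin motor (470.5 in cochlear HCs, 29 in vestibular HCs). At a cochlear HC signal of at least 2000, Gata3 and Bcl11b were the 2 genes inside the tied range of vestibular HCs.

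**Figure D2:**
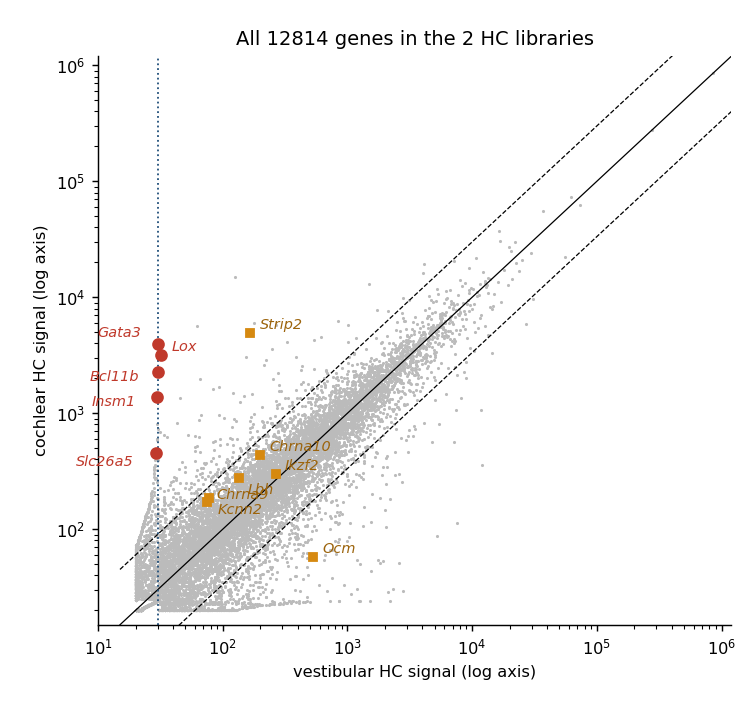
Signals of all 12814 genes in vestibular HCs (x) and cochlear HCs (y), both on log axes, with the line of equality, dashed lines at 3-fold and a dotted line at 30.5, the top of the tied range of vestibular HCs. Red points are the 5 genes, which lie on or beside the dotted line, and orange squares are 7 other outer HC genes, of which Strip2 is far above the upper 3-fold line and Ocm below the lower one.

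Whether these transcripts belong to HCs or to the whole cochlear epithelium was read from the cochlear ENSC library, which the selection did not use, although the comparison shares the cochlear HC library with it. In the cochlea 4 of the 5 genes passed 3-fold upward from ENSCs to HCs and none passed it downward, where 8.39% of all genes were higher and 9.2% lower. The high cochlear HC signal was part of the selection, so these shares too are a description. Insm1 was at least 60.6-fold higher in HCs. Bcl11b was 20.3-fold higher (log2 ratio 4.34), Slc26a5 at least 20-fold and Lox 5.97-fold (log2 ratio 2.58). Gata3 was 1.36-fold lower in HCs than in ENSCs (log2 ratio -0.44), so its RNA was at a similar level in both cochlear libraries.

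In the vestibular system none of the 5 genes was 3-fold higher in HCs and 1, Bcl11b, was at least 3.45-fold lower, where 13.8% of all genes were higher and 14.3% lower. The low vestibular HC signal was part of the selection, so nothing is read from these shares. Gata3 was lower in HCs than in ENSCs there by at least 2.48-fold, and the ratio for Lox was 2.06-fold lower. Insm1 and Slc26a5 were inside the tied ranges of both vestibular libraries and have no fold. The vestibular call of Bcl11b rested on the low signals of 105.25 and 30.5 and was under 3-fold with a floor of 50 (log2 ratio -1.07).

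The 2 ENSC libraries were not used to select the genes and compare the organs outside the HCs. Gata3 was 70.5-fold higher in cochlear than in vestibular ENSCs (log2 ratio 6.14), at place 4 of all genes, and Lox was 8.16-fold higher (log2 ratio 3.03). Bcl11b differed 1.06-fold, and Insm1 and Slc26a5 were in the tied ranges of both libraries. So 2 of 5 genes were at least 3-fold higher in cochlear ENSCs and none 3-fold lower, where 7.8% of all genes were higher and 7.94% lower. The 5 genes thus fell into different patterns: Gata3 was high in both cochlear libraries, Lox was high in cochlear HCs with a lower signal in cochlear ENSCs, and Bcl11b, Insm1 and Slc26a5 were high in cochlear HCs alone. In bulk libraries like these, fewer cells of a type and less RNA per cell cannot be told apart. Of 13 supporting cell markers 6 were 3-fold higher and 1 lower in cochlear than in vestibular ENSCs. Of 6 measured mesenchyme markers 3 were higher and 2 lower. Their part in the Gata3 and Lox values was not tested.

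**Figure D3:**
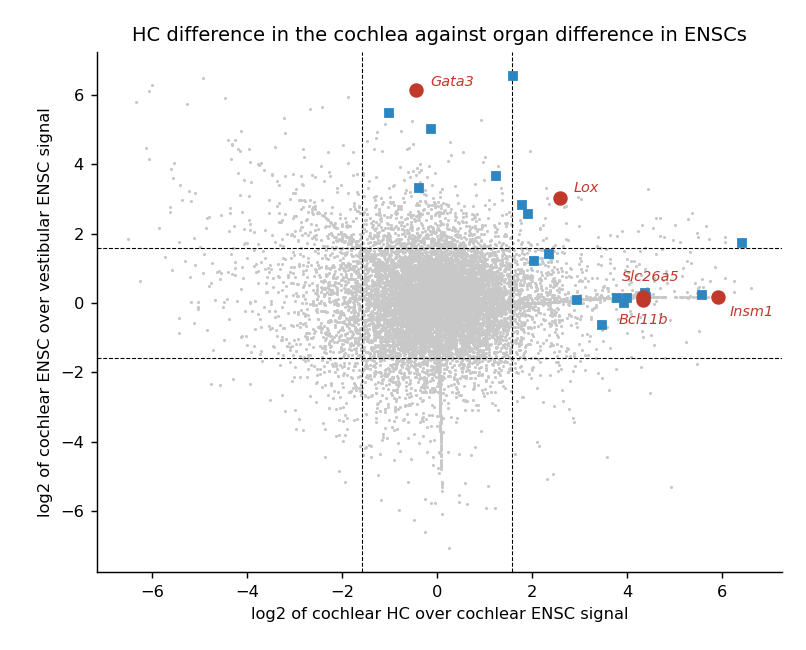
Each point is a gene, with the log2 ratio of cochlear HC to cochlear ENSC signal on x and of cochlear ENSC to vestibular ENSC signal on y, and dashed lines at 3-fold. Red points are the 5 genes, blue squares the genes with the most similar profiles, and the thin rows of grey points come from signals inside tied ranges. Gata3 sits at the top centre (-0.44, 6.14), Lox at 2.58 and 3.03, and Bcl11b, Slc26a5 and Insm1 lie to the right near 0 on y.

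The genes lie on different chromosomes except for Gata3 and Insm1. In the mm9 genome Gata3 (ENSMUSG00000015619) spans chromosome 2, 9778705 to 9811661, and Insm1 (ENSMUSG00000068154) chromosome 2, 146047657 to 146050752. Bcl11b (ENSMUSG00000048251) spans chromosome 12, 109148613 to 109241812, Slc26a5 (ENSMUSG00000029015) chromosome 5, 21316473 to 21371422, and Lox (ENSMUSG00000024529) chromosome 18, 52675723 to 52689521. Gata3 was the only one with overlapping genes in the annotation used, 3 in number, none of them listed in the table (4930412O13Rik, 9230102O04Rik and Gm13256). The strand setting of the counting is not stated, so reads from those genes and from Gata3 cannot be told apart. The exonic GC content ran from 43.8% in Lox to 62.1% in Insm1, and correction of the ratios for length and GC content moved none of the 5 across 3-fold in any of the 4 comparisons.

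Gata3 belongs to a family of 6 GATA factors that bind DNA with the FOG cofactors Zfpm1 and Zfpm2. Of these 8 genes 5 were in the table. None of the 4 genes other than Gata3 was 3-fold apart between the HC libraries, where 4.21% of all genes were higher and 5.09% lower, and 3 of the 4 had both signals inside tied ranges. Gata2, a factor also made in the developing inner ear, had 98.25 in cochlear HCs, 1428.75 in cochlear ENSCs, 74.75 in vestibular HCs and 3399.75 in vestibular ENSCs. It was an ENSC transcript in both organs, 14.5-fold and 45.5-fold below ENSCs in cochlear and vestibular HCs, and so unlike Gata3. Zfpm2 had 23.75, 122.5, 29.25 and 626.25 in the same order of libraries, with both HC signals inside tied ranges. Gata6 and Zfpm1 were at 20 in both HC libraries.

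Bcl11a, the paralogue of Bcl11b, was expressed in HCs of both organs. It had 1940.25 in cochlear HCs, 549.5 in cochlear ENSCs, 836.75 in vestibular HCs and 314 in vestibular ENSCs. Its cochlear to vestibular HC ratio was 2.32-fold, under the threshold, and it was 3.53-fold higher in HCs than in ENSCs of the cochlea. The NuRD corepressor subunits that work with BCL11 factors, such as Chd4 (2604 in cochlear and 1835.25 in vestibular HCs) and Hdac2 (2787.25 and 3575.5), were mostly above the tied range in both HC libraries. The exception was Mbd3, at 21 and 23.5, inside both. Of the 14 genes of this list other than Bcl11b none was 3-fold apart between the HC libraries, a count near the 4.21% and 5.09% of all genes. The median log2 ratio of the 13 without Mbd3 was -0.19, and that of all genes was 0.

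INSM1 and GFI1 are repressors that share a short SNAG domain, through which they recruit the histone demethylase KDM1A (LSD1) and its RCOR partners. Gfi1, which HCs need to survive, had 626 in cochlear HCs, 22.5 in cochlear ENSCs, 1219.75 in vestibular HCs and 20 in vestibular ENSCs. Unlike Insm1 it was high in HCs of both organs, and its signal was 1.95-fold lower in cochlear than in vestibular HCs. Kdm1a was similar in all libraries, from 512.75 to 816.75, and Rcor3 was 2.84-fold higher in cochlear HCs (1042.5 and 366.5). Of 13 listed genes 6 were in the table, and none of the 5 other than Insm1 was 3-fold apart between the HC libraries, again near the 4.21% and 5.09% of all genes. Insm2, Gfi1b and the Snai and Scrt genes were not among the genes listed in the table.

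Lysyl oxidase is made as a proenzyme that BMP1 and the related protease TLL1 cut to release the active form. Tll1 had 29.25 in cochlear HCs, 59.25 in cochlear ENSCs, 2787.25 in vestibular HCs and 221.75 in vestibular ENSCs. It ran opposite to Lox, at 95.3-fold lower in cochlear than in vestibular HCs. Bmp1 had 66.75, 172, 28.75 and 375 in the same order and was highest in ENSCs. Of the 15 measured genes of the list other than Lox, 1 (Mfap4, 363.25 and 111, 3.27-fold) was higher in cochlear HCs and 1 (Tll1) lower, where 4.21% and 5.09% of all genes were. Of the 15, 5 had both HC signals inside tied ranges, and the median log2 ratio of the other 10 was 0.11. Substrate and microfibril genes varied in HCs. Fbn2, a fibrillin gene, reached 763.5 in cochlear and 266 in vestibular HCs, while Col1a1 was 23.75 in cochlear and 29 in vestibular HCs, Eln 20 and 20.75, and Fn1 71 and 37.75. Among the other oxidases, Loxl1 was at 20 in both HC libraries and Loxl3 at 28.25 and 41.5, and neither Loxl2 nor Loxl4 was listed. Against the ENSCs of the same organ 7 of the 15 passed 3-fold downward in cochlear HCs and 9 did so in vestibular HCs, while 1 passed it upward in each. Among all genes the cochlear comparison had 9.2% downward and 8.39% upward, and the vestibular one 14.3% and 13.8%.

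The SLC26 family are anion transporters, and 6 of the 11 listed members were in the table. Slc26a5 alone of these 6 had a higher signal in cochlear HCs than in cochlear ENSCs. Slc26a4, which encodes the chloride and bicarbonate exchanger pendrin, had 23.5 in cochlear HCs, 281.75 in cochlear ENSCs, 35.25 in vestibular HCs and 225.75 in vestibular ENSCs. Slc26a7 had 24.25, 1281.75, 132.75 and 512.75 in that order, and was at least 5.47-fold lower in cochlear than in vestibular HCs. Slc26a4 and Slc26a7 were thus ENSC transcripts in both organs. Slc26a5 was opposite to them in the cochlea and had no direction in the vestibular libraries. Of the 5 other measured members none was 3-fold higher in cochlear HCs, where 4.21% of all genes were. Against cochlear ENSCs 3 of these 5 were 3-fold lower there and none higher, where 9.2% of all genes were lower and 8.39% higher.

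Slc26a5, Insm1 and Bcl11b are known from outer HCs, so other outer HC genes were read beside them. Of the 8 others, 1 passed 3-fold upward in cochlear against vestibular HCs, 1 passed it downward and 6 were under 3-fold, where 4.21% of all genes passed upward and 5.09% downward. Strip2 (listed as Fam40b) had 4940 in cochlear HCs, 74.5 in cochlear ENSCs, 166.75 in vestibular HCs and 20 in vestibular ENSCs, a cochlear to vestibular HC ratio of 29.6. Chrna10, a subunit of the efferent acetylcholine receptor, had 438.5, 22.5, 199.5 and 20 in that order, and its partner Chrna9 170.75, 21.25, 75.5 and 20. These receptor genes were HC transcripts of both organs, with ratios of 2.20 and 2.26. The potassium channel gene Kcnn2 (185 and 77) had a ratio of 2.40, and the cofactor gene Lbh (278.5 and 135.25) one of 2.06. Ikzf2, a transcription factor of maturing outer HCs, differed 1.13-fold between the HC libraries and was 3.34-fold lower in cochlear HCs than in cochlear ENSCs. Ocm, the calcium-binding protein oncomodulin, had a cochlear HC signal of 57.75 against 533.75 in vestibular HCs, which is 9.24-fold lower. The authors describe Ocm at this newborn stage as expressed in vestibular HCs and undetected in cochlear ones. The median log2 ratio of the 8 genes was 1.16, where that of all genes was 0.

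Genes of inner HCs and of vestibular HCs were mixed. Slc17a8, the glutamate transporter that loads the synaptic vesicles of inner HCs, had a cochlear HC signal of 1058 against a vestibular one of 11819.75. Tbx2, which maintains inner HC fate, had 109.5 and 363, and Otof 1565.5 and 3806, in the same order. Slc7a14 was the exception, with 2363 and 421.5. Of the 6 measured vestibular HC genes 3 were 3-fold lower in cochlear HCs and none 3-fold higher, where 5.09% and 4.21% of all genes were. These were Spp1 (51.5 and 2615.25), Skor1 (99.25 and 559) and Tekt1 (75.25 and 415.75), the last a gene of ciliary microtubules. The others were under 3-fold, namely Sox2 (2659.5 and 3960.75), Calb2 (563.75 and 398.75) and Anxa4 (5641.5 and 5410).

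**Figure D4:**
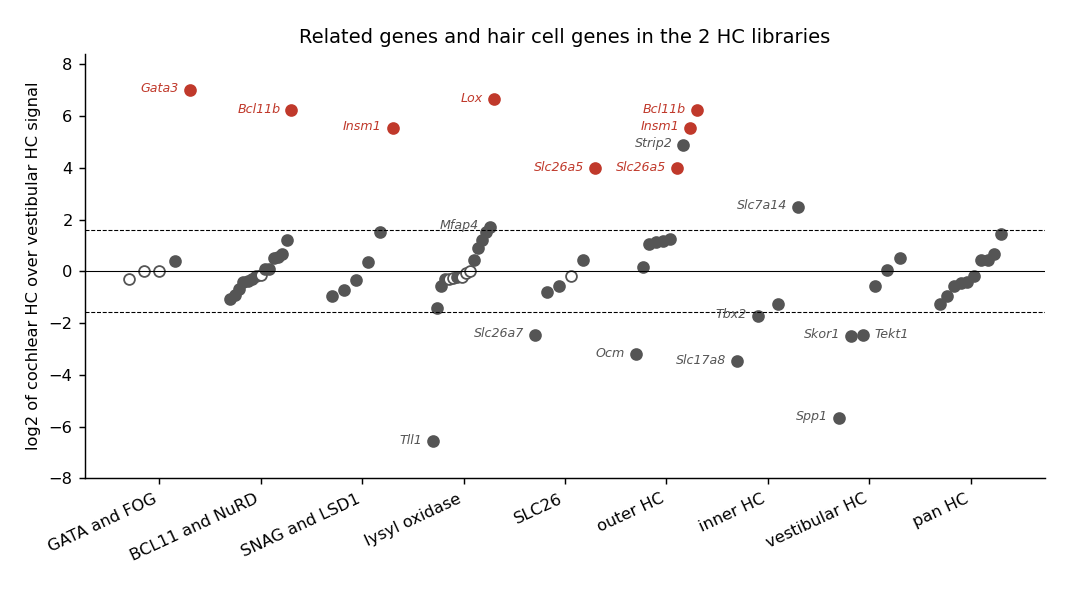
Log2 ratio of cochlear to vestibular HC signal for the measured genes of 9 lists, 1 outer HC gene left out, 1 point per gene, with dashed lines at 3-fold, red for the 5 genes and open points where both signals are inside tied ranges. In the first 5 lists each red point (3.97 to 7.01) stands apart from its relatives, whose highest point is Mfap4 at 1.71, and among outer HC genes Strip2 (4.89) lies between the red points. The red points were chosen on this ratio, so their distance from the others follows from the selection.

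Other genes had profiles like those of the 5 over the 4 libraries. Likeness was measured as the Euclidean distance between log2 signals centred on each gene's mean, with tied signals raised to the top of their range, over 6727 candidates, the protein-coding genes that reached a signal of 200 in some library. With Pearson correlation as the measure, none of the 5 nearest genes of Gata3, Bcl11b and Lox was the same. With 4 points a profile this is a description, and small distances are common among genes that are low in 3 libraries. Nearest to Gata3 was Nr2f2 (distance 1.57), a nuclear receptor, with 1961.5 in cochlear HCs, 3978.5 in cochlear ENSCs, 66 in vestibular HCs and 89.5 in vestibular ENSCs. It was followed by Moxd1, Calb1 (2.32), Lox (2.76) and Angpt1 (2.78). Nearest to Bcl11b was Zfp503 (distance 1.40), another zinc-finger gene, with 5793.75, 524.25, 269.5 and 813.25 in the same order, and then Gria4, Sema5b, Ncam1 and Lgi1 (1.69 to 2.01).

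Insm1 and Slc26a5 lay close to each other (distance 1.39) and shared the neighbours Sema5b, an axon guidance gene, and Kif21b. Slc26a5 was almost the same in profile as Kif21b (distance 0.0419), and its next neighbours were Sema5b (0.27), Ptgir, Pcp4l1 and Cacng5 (0.31 to 0.50). The neighbours of Insm1 also included Coro2a (1.42) and Pkhd1l1 (1.51), whose product coats HC stereocilia. Nearest to Lox was Crispld1 (distance 1.25), with 1363.25, 392.75, 45.75 and 56 in the same order, and then Rorb, Gria4, Cubn and Moxd1 (1.73 to 2.09). Among the 5 genes the farthest pair was Gata3 and Insm1 (6.00).

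Markers of cells that the gates could have let through were read in the same libraries. Of 8 mesenchyme markers 6 were in the table, and their summed signal was 1027.75 in cochlear HCs, 17244 in cochlear ENSCs, 237 in vestibular HCs and 2580 in vestibular ENSCs. The difference between the HC libraries came from Lum (728.25 and 30.5) and Dcn (181.5 and 30.5), and Col1a1, Col3a1 and Postn were inside the tied range in cochlear HCs. Lum and Dcn in cochlear HCs were 5.72% and 9.93% of their cochlear ENSC signals, while the 13 supporting cell markers ran from 1.23% (Epyc) to 201% (Lfng) with a median of 72.2%. The corresponding value was 73.6% for Gata3, 597% for Lox and 2027% for Bcl11b, and Insm1 and Slc26a5, whose cochlear ENSC signals were inside the tied range, have only the lower bounds given above. Of 180 protein-coding genes that reached 5000 in cochlear ENSCs, 84 reached the 73.6% of Gata3, as did 6 of the 13 supporting cell markers, and the median of the 180 was 68.5%. 

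The 13 supporting cell markers summed to 18504 in cochlear and 16386 in vestibular HCs, and to 100564 and 24968 in the ENSCs. Among them 4 passed 3-fold upward in cochlear against vestibular HCs and none passed it downward (4.21% and 5.09% of all genes), while 7 had a lower cochlear signal, all by under 3-fold, and the median log2 ratio was -0.12. Those past 3-fold were Gjb2, a gap junction gene (4084.25 and 329.25), Tecta, a tectorial membrane gene (4249.25 and 535), Epyc (763.75 and 210) and Fgfr3 (154.25 and 25.75, the second inside the tied range). Gjb2 was also higher in cochlear than in vestibular ENSCs, by 12.4-fold, and had a cochlear HC signal close to that of cochlear ENSCs (4725.5). The part of such markers in the Gata3 and Lox values was not tested. Of 9 neuron markers 6 were listed, summing to 9400 in cochlear and 9722 in vestibular HCs, mostly from Nefl, Nefm, Snap25 and Isl1, which HCs express too. Neurod1, Prph and Tubb3 were not listed. The 5 glia markers summed to 1001 in cochlear and 575 in vestibular HCs, and their part in the results was not tested. Because Gata3 and Bcl11b are T cell factors, 9 leukocyte markers were included. Only Rag1 was listed, with 305.75 in cochlear HCs, 22 in cochlear ENSCs, 173.5 in vestibular HCs and 20.25 in vestibular ENSCs, and Ptprc and the Cd3 genes were not. Of 5 blood and endothelium markers only Kdr was listed. It was inside the tied range of both HC libraries and had 29 in cochlear and 1461.75 in vestibular ENSCs. Of 4 melanocyte markers none was listed.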

How the data were processed

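RNA of sorted HCs and ENSCs of the cochlea and vestibular system was sequenced, and the table analysed holds 1 column for each of the 4 populations. Samples were grouped by source name, and each non-HC column was matched to the ENSC sample from its organ. RNA was amplified before library preparation (NuGEN Ovation). The authors trimmed and aligned reads to mm9 with TopHat, used HTSeq on ENSEMBL genes, applied quantile normalization and set a floor of 20, so the deposited unit is a signal. Versions and strand setting are not given in the sources used here. The values are not divided by gene length, and depth per library cannot be recovered.

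Log2 ratios were computed without a pseudocount in Python 3.11.15 (pandas 2.3.3, statsmodels 0.14.6), and 3-fold either way was the threshold in 4 comparisons. No test was made, since 1 library per group gives no replicate error. The top of a tied range was the last signal before the median of the genes' highest signal elsewhere dropped to under 0.1 of its value, with genes ordered within the range by that highest signal (rank correlation over 0.9). This rule was chosen after the values were seen. It recovered the tops in simulated data, but only after the simulated noise was made heavier-tailed, and with a wider tolerance on the simulated ratios. The simulation ordered tied genes by their highest signal elsewhere, as the rule assumes, so nothing is read from this recovery. It also set the floor before normalization, while the authors describe setting it afterwards. GENCODE vM1 gave mm9 positions and lengths for 12799 genes. The rule for named genes was the 5 genes, members of the gene lists, and the 5 nearest profiles of each. Genes absent by symbol were matched by Entrez number (Strip2). The genes and lists were chosen with earlier results of these data known. Alternatives were other floors (50, 100), pseudocounts (20, 100), thresholds (2, 5), centring, raised tied ranges, gene filters (protein-coding, signal of at least 100), and length and GC correction (local regression, span 0.3, 2 robust iterations). Kif21b was named after its values were seen, as the third gene of a small count. Values of 2 listed genes are not reported here.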

Additional observations from a re-analysis of the deposited data

Results flagged for a closer look

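Bcl11b and Lox were flagged because the HC to ENSC difference ran in opposite directions in the 2 organs. Bcl11b had a log2 ratio of 4.34 for cochlear and -1.79 for vestibular cells, and Lox had 2.58 and -1.04. The genes were chosen for a high cochlear and a low vestibular HC signal, which favours these signs, and with 1 library per population the difference between the organs was not tested. In both cases the vestibular ratio rested on low signals, 105.25 against 30.5 for Bcl11b and 65.25 against 31.75 for Lox.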

How the results depend on the processing

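The 5 genes were above 3-fold in cochlear over vestibular HCs under each of the 11 alternatives, with log2 ratios no lower than 4.95 for Gata3, 4.64 for Lox, 4.18 for Bcl11b, 3.51 for Insm1 and 2.11 for Slc26a5. The genes were chosen on this ratio, and the gene filters and other thresholds leave it unchanged. Nothing about its stability is therefore read from these values. Of 220 single log2 ratios of the 5 genes under these alternatives, 213 stayed on the same side of the threshold. That number overstates the stability, because the gene filters cannot change a ratio. It also counts the ratios the genes were chosen on and those with both signals inside tied ranges. The ratios that changed side were in the vestibular HC to ENSC comparison. There 1 gene (Bcl11b) was 3-fold lower in HCs. The count was 0 with a floor of 50 or 100, a pseudocount of 20 or 100, or a threshold of 5-fold. It was 3 with a threshold of 2-fold. The log2 ratio of Bcl11b was -0.07 with a floor of 100 and -0.65 with a pseudocount of 100. The number of all genes past the threshold moved more, from 540 to between 115 and 1347 for genes higher in cochlear HCs than in vestibular HCs and from 652 to between 163 and 1343 for lower ones, with the smallest numbers at a pseudocount of 100 and the largest at 2-fold. The counts were 394 to 2110 (1075) and 406 to 2232 (1179) for cochlear HCs against ENSCs, 672 to 3017 (1762) and 730 to 3142 (1837) for vestibular HCs against ENSCs, and 298 to 2213 (999) and 361 to 2213 (1018) between ENSCs, higher first and as reported in brackets. With Pearson correlation in place of distance, 0 of the 5 nearest genes were shared for Gata3, Bcl11b and Lox, 3 for Insm1 and 4 for Slc26a5. With tied ranges not raised 5 were shared, and 4 for Bcl11b. Raising tied ranges moved the median log2 ratio of all genes to -0.10 between the HC libraries and to 0.16 between vestibular HCs and ENSCs. No paired analysis was possible because each group has 1 library. Depth is unknown, and no difference was detectable where both signals were inside tied ranges.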
